A study of Homo sapiens with 5 samples.

Results

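The genes described here repair DNA by homologous recombination, undo interstrand crosslinks through the Fanconi pathway, or carry the ATR checkpoint signal. The list names 43 genes, and a gene was taken when at least 1 probe set of the array mapped to it and to no other gene, with its brightest probe set standing for it. By this rule 38 of the 43 were measured, among 19775 genes in all. ATRIP was left out because its 3 probe sets each map to several genes, and the other 4 had no row in the annotation used here and were not analysed here. The samples were MDA-MB-231 cells, an established human breast cancer line of mesenchymal appearance, given 2 uM SAHA (2 arrays) or the vehicle DMSO (3 arrays) for 30 h. SAHA, or vorinostat, blocks histone deacetylases, the enzymes that strip acetyl groups off histones. Every array held RNA from many cultured cells together. The text on RNA extraction speaks of transfected cells, while the remaining labels name no transfected construct. Values are intensities from arrays with several probes per transcript, on a log2 scale, and a log2 fold is the SAHA mean minus the DMSO mean.

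Homologous recombination copies lost sequence from the sister chromatid and so works mainly in S and G2 phase. Ends are first cut back to single strands, mediators led by BRCA1 and its partners then load a recombinase on the strand, the filament invades the sister, and helicases and nucleases finally take the joined molecules apart. The Fanconi core complex marks a clamp with ubiquitin at a crosslink, and the break left when the crosslink is cut passes to the same machinery. ATR, with TOPBP1 and claspin, senses single-stranded DNA and switches on CHEK1, which holds the cell cycle. Many of these genes are known E2F targets, switched on as cells enter S phase.

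The 5 arrays had median intensities of 88.8 to 91.2 over all probe sets. Across the 19775 genes, arrays of a group correlated at 0.9972 to 0.9986 (Pearson's r) and arrays of different groups at 0.9791 to 0.9801. DMSO 1 stood apart in the ACTB 3' minus 5' difference, a sign of RNA quality, at 3.29 against 2.04 to 2.22 on the other 4 arrays. Markers of MDA-MB-231 were mixed. All 5 genes known to be high in it, VIM among them, lay above the median gene of the DMSO arrays, and 3 of 6 genes known to be low (ESR1, PGR and CDH1) lay below it. EPCAM, ERBB2 and GATA3 of that list lay above it. After SAHA 2 of the 5 high markers were called lower (MSN and AXL) and 0 higher, and of the 6 low markers 3 were called lower (EPCAM, ERBB2 and GATA3) and 1 higher. That one was CDH1, an epithelial cadherin, with 6.49 and 6.12 on the SAHA arrays, against 4.75, 4.48 and 4.78 on the DMSO arrays (1.64 ± 0.15, SE; limma adjusted p = 0.00259), and its second brightest probe set gave -0.10. The calls of all 5 lower markers ended without at least 1 of the arrays, and the part of these changes in the results on repair genes was not tested. The labels do not say whether the arrays came from separate cultures, and the spread behind each p-value may thus be technical. The number of arrays limits the precision.

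Of the 38 measured genes, 26 fell after SAHA and 0 rose, with a median log2 fold of -0.55. The test was limma's moderated test with Benjamini-Hochberg adjustment over all 19775 genes and a threshold of adjusted p under 0.05, and genes past it are said to be called. Of these 38 genes 68.4% were called lower, against 15.6% of all genes. The 38 were brighter than most, since 5 had a DMSO level below the median gene, against 9887 of the 19775. Without genes below the 40th percentile of level, 26 of the members were called lower, beside 3175 of all remaining genes lower and 2721 higher. The share called lower among brighter genes is thus above 15.6%, and the part of level in the comparison was not tested. Over all genes 14% were called higher and 29.6% in either direction, and the median log2 fold was -0.03. At an unadjusted p under 0.05, 27 were lower and 2 higher, the 2 being FANCF and RAD51B. Both SAHA arrays lay below all DMSO arrays for 29 of the 38, against 26% of all genes. Both SAHA arrays lay above all DMSO arrays for 3 (FANCF, RAD51B and RAD50), against 22.1% of all genes. SAHA 2 lay below SAHA 1 for 30 of the 38, against 42.4% of all genes. At least 2-fold decreases were called for 9 genes, against 2.54% of all genes. With 1 array left out at a time, 17 (without DMSO 3) to 20 (without SAHA 1) of the 38 were called lower. RNA came from many cells together, so fewer cells of one phase and less RNA per cell cannot be told apart.

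**Figure D1:**
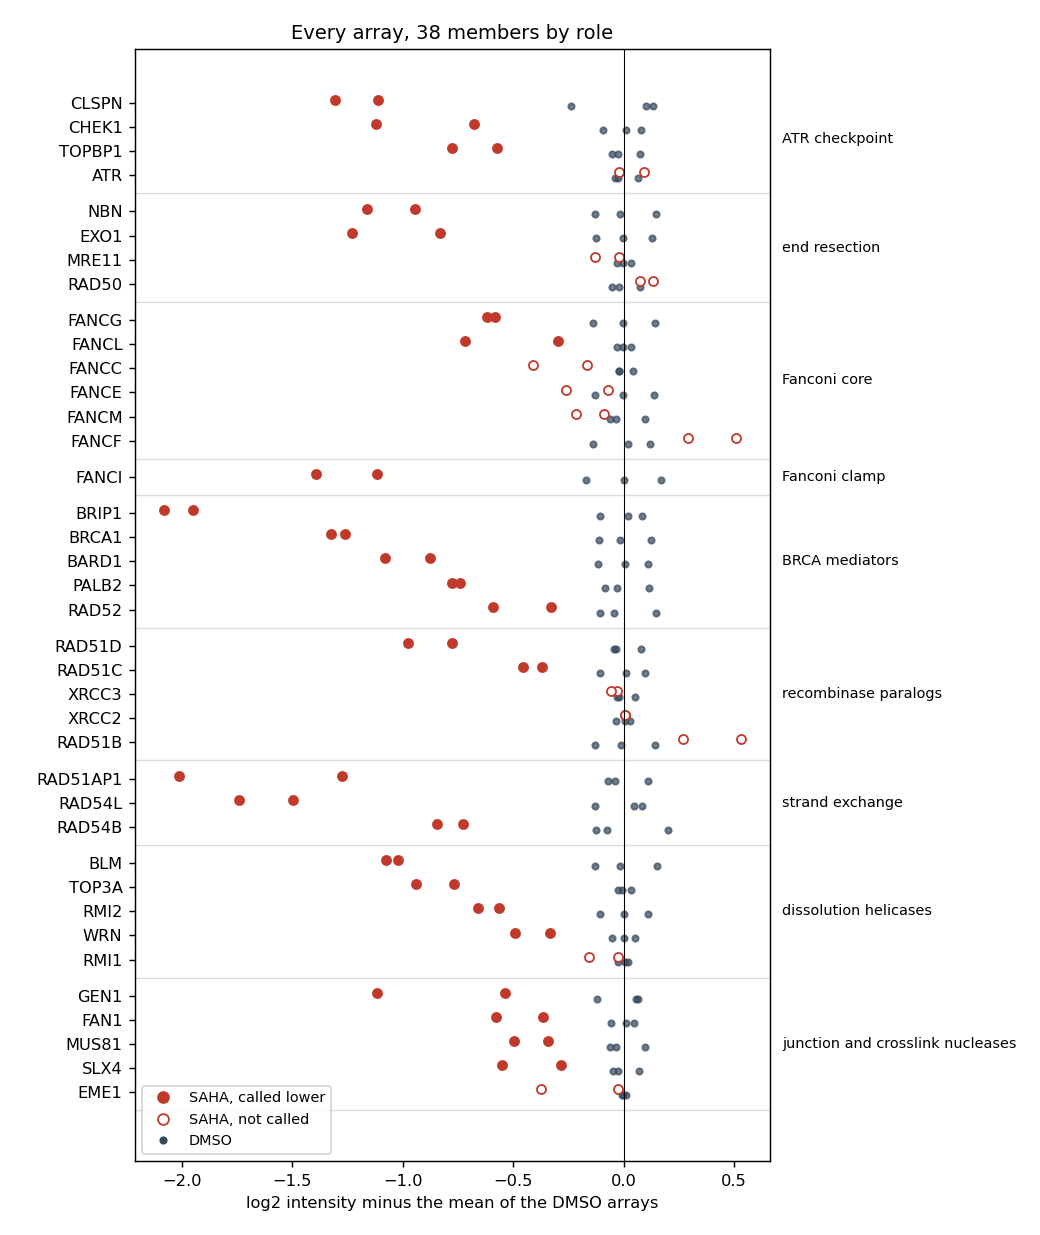
Each row is a gene, grouped by role, and the x axis is the log2 intensity on each array minus the mean of the DMSO arrays. Large red points are the 2 SAHA arrays (filled where limma called the gene lower, open where it made no call) and small dark points are the 3 DMSO arrays; the red points of 29 genes lie left of all dark points, and those of RAD50, FANCF and RAD51B lie right of them.

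Of 4 ATR checkpoint genes measured, 3 fell (CLSPN, CHEK1 and TOPBP1) and ATR itself was not called. CLSPN, which encodes claspin, the adaptor that brings CHEK1 to ATR, had log2 intensities of 6.35 and 6.15 on the SAHA arrays, against 7.22, 7.59 and 7.56 on the DMSO arrays. The groups did not overlap, and CLSPN fell 2.31-fold (-1.21 ± 0.14, SE; limma adjusted p = 0.00464). CHEK1, the effector kinase, had 9.39 and 8.94 on the SAHA arrays, against 10.08, 10.14 and 9.97 on the DMSO arrays. It fell 1.86-fold (-0.90 ± 0.15, SE; limma adjusted p = 0.0122), and SAHA 2 was the lower array for both genes. TOPBP1, which activates ATR, fell by 0.68 ± 0.08 on the log2 scale (SE; limma adjusted p = 0.00502). ATR, the kinase at the head of the pathway, had 10.02 and 9.91 on the SAHA arrays, against 10.00, 9.89 and 9.91 on the DMSO arrays. The groups overlapped (0.04 ± 0.06, SE; limma adjusted p = 0.696). The call of CHEK1 ended without DMSO 1, DMSO 2 or DMSO 3 (limma adjusted p = 0.0595, 0.0645 and 0.0548) and that of CLSPN without SAHA 2 (0.0526). The other 3 probe sets of CLSPN, all dimmer, gave -0.51, -0.39 and -0.21 and were not called. Its brightest probe set itself had a DMSO mean (7.46) just below that of the median gene (7.56).

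Of the end resection genes, NBN and EXO1 fell, and MRE11 and RAD50 were not called. MRE11, RAD50 and NBN form the complex that senses broken ends and makes the first cut. NBN, the regulatory subunit, had 9.64 and 9.42 on the SAHA arrays, against 10.73, 10.57 and 10.45 on the DMSO arrays. It fell 2.07-fold (-1.05 ± 0.11, SE; limma adjusted p = 0.00361) with no overlap between the groups. MRE11, the nuclease, had 9.99 and 9.88 on the SAHA arrays, against 10.01, 10.04 and 9.98 on the DMSO arrays (-0.07 ± 0.05, SE; limma adjusted p = 0.358). RAD50, the ATPase that bridges ends, had 10.15 and 10.09 on the SAHA arrays, against 9.99, 9.96 and 10.09 on the DMSO arrays (0.10 ± 0.06, SE; limma adjusted p = 0.262). The RAD50 groups were separated by less than the rounding shown, and those of MRE11 overlapped. EXO1, the exonuclease that extends the resected tract, had 8.22 and 7.82 on the SAHA arrays, against 9.05, 8.93 and 9.18 on the DMSO arrays. It fell 2.04-fold (-1.03 ± 0.15, SE; limma adjusted p = 0.0082). Of the 4 resection genes measured, 2 were called lower. The calls of NBN and EXO1 stood with each array left out in turn.

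Of the Fanconi clamp 1 of 2 listed subunits was measured, FANCI, which fell, and of 6 measured core genes 2 fell. FANCI, a subunit of the clamp that the core complex marks with ubiquitin, had 9.79 and 9.52 on the SAHA arrays, against 11.08, 10.74 and 10.92 on the DMSO arrays. It fell 2.39-fold (-1.26 ± 0.14, SE; limma adjusted p = 0.00374), and its other 2 probe sets gave -1.34 and -1.25. No core gene was called higher, and their median was -0.23. FANCG, a scaffold subunit, fell by 0.60 ± 0.09 (SE; limma adjusted p = 0.00994) and FANCL, the ubiquitin ligase, fell by 0.51 ± 0.13 (SE; limma adjusted p = 0.0495). FANCC (-0.29), FANCE (-0.17) and FANCM (-0.15), the last a translocase that recognises stalled forks, were not called (limma adjusted p = 0.0687, 0.319 and 0.217). The second brightest probe set of FANCM was called lower (-0.33, limma adjusted p = 0.0383 over all probe sets), while its dimmer ones gave -0.20 and 0.01 and were not called. FANCF, an adaptor subunit, had 8.93 and 8.71 on the SAHA arrays, against 8.44, 8.28 and 8.55 on the DMSO arrays. Its SAHA arrays lay above all DMSO arrays (0.40 ± 0.11, SE; limma adjusted p = 0.0547). Its call depended on several settings besides scaling. It was called higher with each array centred on the median gene (0.40, limma adjusted p = 0.0361) and with its probe sets averaged (0.34, 0.0161). With the fold unchanged, it was also called higher under robust priors (0.0388) and without dim genes (0.0226). The call of FANCG ended without SAHA 1, SAHA 2 or DMSO 3 (limma adjusted p = 0.0892, 0.0724 and 0.0567) and that of FANCL without any of the 3 DMSO arrays (0.152 to 0.159), while FANCC was called lower without SAHA 2 (0.0244).

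All 5 measured genes of the BRCA1 and mediator group fell. BRIP1, the helicase that binds BRCA1, fell most of the 38 genes. It had 8.16 and 8.03 on the SAHA arrays, against 10.19, 10.13 and 10.00 on the DMSO arrays, a 4.04-fold decrease (-2.01 ± 0.08, SE; limma adjusted p = 0.000548). The gap between the groups was several times the spread within them. BRCA1, which steers repair towards recombination and recruits the mediators, had 8.41 and 8.35 on the SAHA arrays, against 9.80, 9.66 and 9.57 on the DMSO arrays. It fell 2.45-fold (-1.29 ± 0.08, SE; limma adjusted p = 0.00105). BARD1, its obligate partner in the ubiquitin ligase, had 9.76 and 9.56 on the SAHA arrays, against 10.75, 10.64 and 10.52 on the DMSO arrays. It fell 1.97-fold (-0.98 ± 0.10, SE; limma adjusted p = 0.0031), and its other 2 probe sets gave -0.97 and -1.08. PALB2, the bridge from BRCA1 to the recombinase loader, fell 1.69-fold (-0.76 ± 0.07, SE; limma adjusted p = 0.00258). RAD52, which anneals single strands, fell least of the group (-0.46 ± 0.12, SE; limma adjusted p = 0.045). Its call ended with any of the 5 arrays left out (limma adjusted p = 0.0803 to 0.18).

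**Figure D2:**
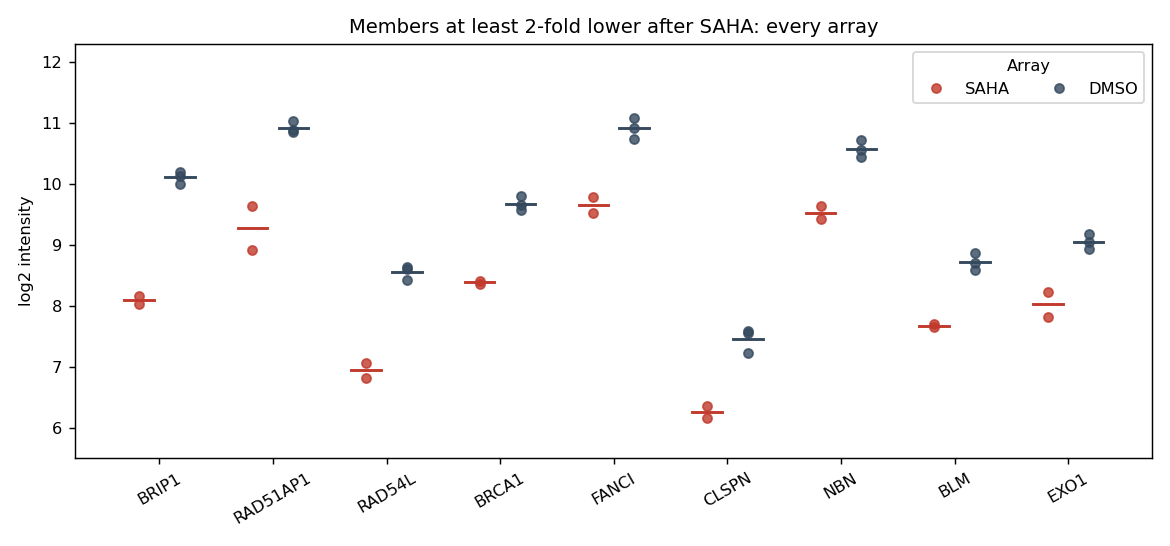
The log2 intensity on each array (y axis) is shown for the 9 genes called at least 2-fold lower, ordered from the lowest log2 fold, with SAHA in red on the left and DMSO in dark blue on the right; short lines are group means. No SAHA point reaches a DMSO point of the same gene, and the 2 SAHA arrays lie farthest apart for RAD51AP1, at 9.65 and 8.91.

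The recombinase paralogs, small ATPases that stabilise the filament, had 2 of 5 genes called lower and 0 higher. RAD51D had 6.60 and 6.80 on the SAHA arrays, against 7.66, 7.53 and 7.55 on the DMSO arrays, and fell 1.84-fold (-0.88 ± 0.08, SE; limma adjusted p = 0.00235). RAD51C, the paralog shared by both paralog complexes, fell 1.33-fold (-0.41 ± 0.07, SE; limma adjusted p = 0.0164). RAD51B had 7.28 and 7.55 on the SAHA arrays, against 7.004, 6.88 and 7.16 on the DMSO arrays. Its SAHA arrays lay above all DMSO arrays (0.40 ± 0.12, SE; limma adjusted p = 0.0714), but its other 3 probe sets gave -0.13, -0.11 and -0.08. XRCC2 had 7.13 on both SAHA arrays and 7.09, 7.16 and 7.13 on the DMSO arrays, and XRCC3 had 6.63 and 6.60 on the SAHA arrays, against 6.63, 6.70 and 6.63 on the DMSO arrays. Neither was called (0.00 and -0.04; limma adjusted p = 0.955 and 0.535), both had a DMSO level below the median gene, and each has 1 probe set. Of the 38 genes 5 lay below that level (7.56), the others being RAD51B (7.02) and the called CLSPN (7.46) and RAD52 (6.92). The values carry no measure of signal over background, and the part of dim signal in the results of these 5 was not tested. The call of RAD51C ended without SAHA 1, SAHA 2 or DMSO 3 (limma adjusted p = 0.0799, 0.0982 and 0.0776).

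Of the genes for strand invasion, all 3 fell. RAD51AP1, which helps the filament pair with the sister, had 9.65 and 8.91 on the SAHA arrays, against 10.85, 11.03 and 10.89 on the DMSO arrays. It fell 3.13-fold (-1.64 ± 0.23, SE; limma adjusted p = 0.00779), with SAHA 2 well below SAHA 1. RAD54L, the motor that drives strand exchange, had 7.06 and 6.82 on the SAHA arrays, against 8.61, 8.43 and 8.64 on the DMSO arrays. It fell 3.07-fold (-1.62 ± 0.11, SE; limma adjusted p = 0.00112). RAD54B, a related motor, had 8.56 and 8.44 on the SAHA arrays, against 9.16, 9.21 and 9.48 on the DMSO arrays, and fell 1.72-fold (-0.79 ± 0.12, SE; limma adjusted p = 0.00901). Leaving out SAHA 1 or SAHA 2 ended the call of RAD54B (limma adjusted p = 0.0702 and 0.0788).

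Of the genes that dissolve joined molecules, 4 of 5 fell. BLM, the helicase that pushes 2 junctions together, had 7.70 and 7.65 on the SAHA arrays, against 8.71, 8.59 and 8.87 on the DMSO arrays. It fell 2.07-fold (-1.05 ± 0.09, SE; limma adjusted p = 0.00222). TOP3A, the topoisomerase that separates the strands with BLM, fell 1.81-fold (-0.85 ± 0.06, SE; limma adjusted p = 0.00154). RMI2, a stabilising subunit of the BLM complex, had 9.54 and 9.45 on the SAHA arrays, against 10.22, 10.00 and 10.11 on the DMSO arrays (-0.61 ± 0.08, SE; limma adjusted p = 0.00619). RMI1, its partner subunit, had 11.39 and 11.26 on the SAHA arrays, against 11.39, 11.43 and 11.44 on the DMSO arrays, and was not called (-0.09 ± 0.06, SE; limma adjusted p = 0.302). WRN, a related helicase, fell 1.33-fold (-0.41 ± 0.07, SE; limma adjusted p = 0.0122). Leaving out SAHA 1 or SAHA 2 ended the call of RMI2 (limma adjusted p = 0.0508 and 0.0564), and leaving out DMSO 2 that of WRN (0.0587).

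Of 5 nuclease genes that cut junctions and crosslinks, 4 were called lower, with a median of -0.42. GEN1, a junction resolvase, fell 1.77-fold (-0.83 ± 0.19, SE; limma adjusted p = 0.033), FAN1, a crosslink nuclease, 1.39-fold (-0.47 ± 0.08, SE; limma adjusted p = 0.0134), and the scaffold SLX4 1.34-fold (-0.42 ± 0.10, SE; limma adjusted p = 0.0336). MUS81, a structure-selective nuclease, had 10.30 and 10.15 on the SAHA arrays, against 10.61, 10.58 and 10.74 on the DMSO arrays (-0.42 ± 0.08, SE; limma adjusted p = 0.0176). EME1, its non-catalytic partner, had 11.95 and 11.60 on the SAHA arrays, against 11.97, 11.98 and 11.97 on the DMSO arrays. It was not called by its brightest probe set (-0.20 ± 0.11, SE; limma adjusted p = 0.275), while its other probe set gave -0.39 ± 0.07 (SE; limma adjusted p = 0.0191 over all probe sets), and it was called lower without SAHA 1 (limma adjusted p = 0.017). The other probe sets of GEN1 (-0.08, mean log2 intensity 2.88) and SLX4 (-0.08) were not called (limma adjusted p = 0.684 and 0.511 over all probe sets). The call of MUS81 ended with any array left out (limma adjusted p = 0.0537 to 0.0854). That of SLX4 ended without SAHA 1, DMSO 1, DMSO 2 or DMSO 3 (0.0829 to 0.125), that of GEN1 without SAHA 2, DMSO 1, DMSO 2 or DMSO 3 (0.0593 to 0.13), and that of FAN1 without DMSO 1 or DMSO 3 (0.06 and 0.0674).

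Early and late steps of the pathway were then set side by side. Early steps were the ATR checkpoint, end resection and the Fanconi core, middle steps the Fanconi clamp, the mediators and the paralogs, and late steps strand invasion, dissolution and cutting. Of 14 early genes, 7 were called lower (50%), with a median log2 fold of -0.40 and a range of -1.21 to 0.40. Of 11 middle genes, 8 were called lower (72.7%), with a median of -0.76 and a range of -2.01 to 0.40. Of 13 late genes, 11 were called lower (84.6%), with a median of -0.61 and a range of -1.64 to -0.09. The median late gene was -0.55 on SAHA 1 and -0.66 on SAHA 2 relative to the DMSO mean, and the median early gene -0.35 and -0.42. The spread between genes within each step was wider than the difference between the medians, and that difference was not tested. By the median it depended on the Fanconi core, since the 8 early genes outside the core had a median of -0.79, below that of the late genes. That split was chosen after the values were seen. By calls, 3 of 4 ATR checkpoint genes and 2 of 4 resection genes were lower. Over 15 settings, the main one among them, the late median lay below the early one in 14. Not all of these could differ. Centring on ribosomal protein genes, the median gene or the poly-A controls shifts all genes of an array alike. Late minus early thus stayed at its main value of -0.22 there, and it was also -0.22 without dim genes. Late minus early ranged from -0.52 to 0.0047. With the second brightest probe set of each gene the medians were -0.42, -0.39 and -0.41 for early, middle and late steps.

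**Figure D3:**
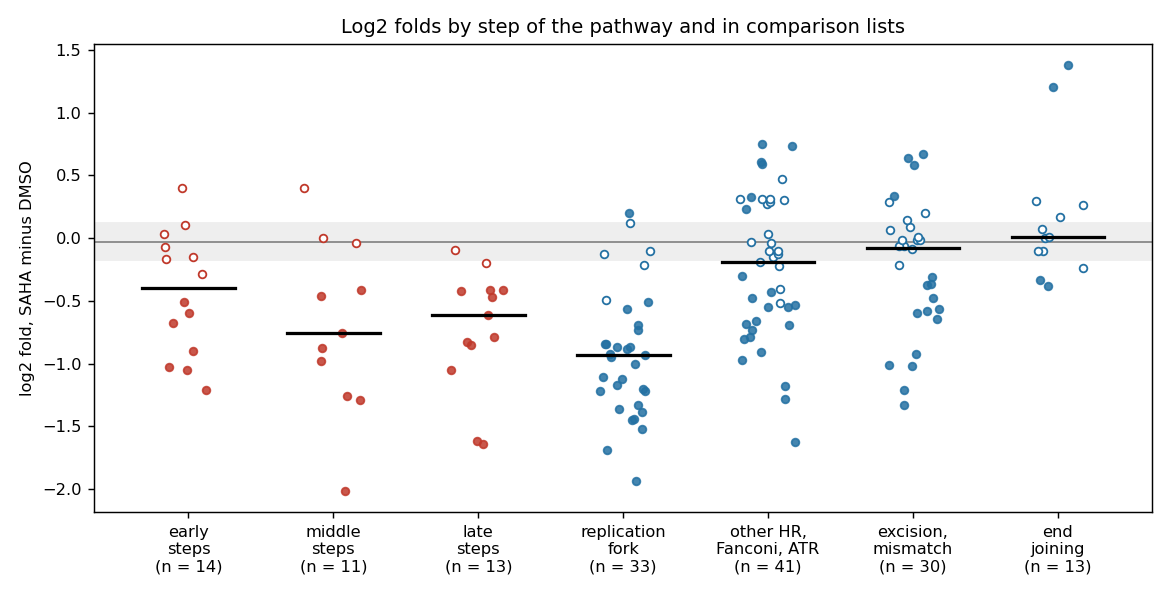
The log2 fold of each gene (y axis, SAHA minus DMSO) is shown for early, middle and late steps in red and for 4 comparison lists in blue; filled points were called by limma and open points were not, black bars are medians, the grey line is the median of all genes and the grey band their middle range from the lower to the upper quartile. All 13 late genes lie below 0, and XRCC4 and LIG4 of end joining lie at the top of the plot at 1.38 and 1.20.

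Genes whose products work as partners were compared. Among 10 partner pairs, 7 had both genes measured, and the difference between the log2 folds was computed from the difference on each array. RMI1 minus RMI2 was 0.52 ± 0.10 (SE), and RAD54L minus RAD54B was -0.83 ± 0.12 (SE). BRCA1 minus BARD1 was -0.32 ± 0.05 (SE), RAD50 minus MRE11 0.18 ± 0.07, EME1 minus MUS81 0.22 ± 0.10, CLSPN minus CHEK1 -0.31 ± 0.19 and XRCC2 minus XRCC3 0.05 ± 0.02. For the first 5 of these the SAHA and DMSO arrays did not overlap and a two-sided exact permutation test over arrays gave p = 0.2 (0.28 after Benjamini-Hochberg over the 7 pairs). With 10 arrangements of the arrays, 0.2 is the smallest p this design allows, so it cannot pass 0.05. For the last 2, CLSPN with CHEK1 and XRCC2 with XRCC3, the exact permutation p was 0.4. The signs of BRCA1 minus BARD1 (0.17) and CLSPN minus CHEK1 (0.47) turned when a gene's probe sets were averaged, so which of those partners fell more depends on the probe set. With the second brightest probe set RAD50 minus MRE11 was 0.014 and EME1 minus MUS81 0.032, MUS81 having only 1.

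**Figure D4:**
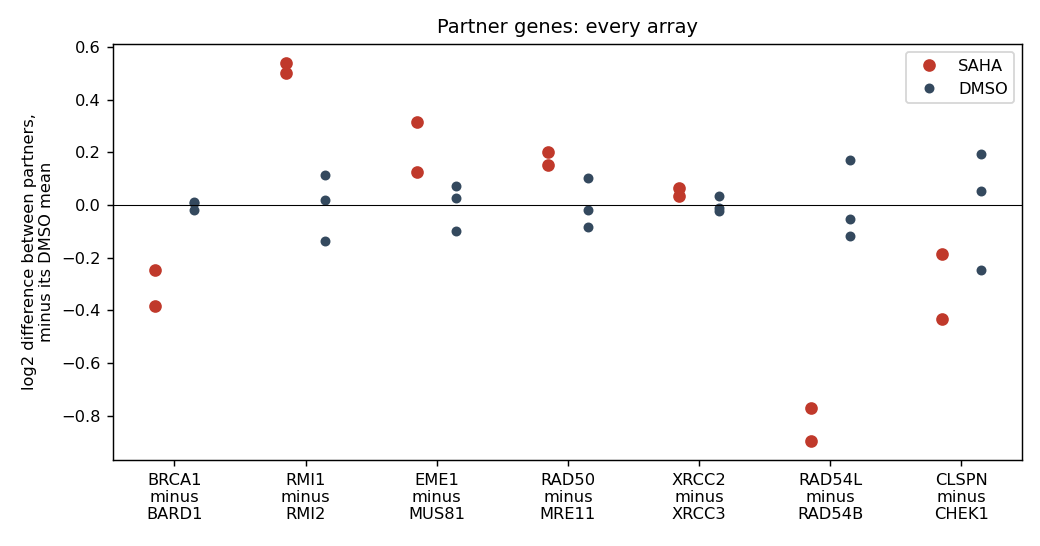
The log2 difference between partner genes on each array, minus its mean over the DMSO arrays (y axis), is shown for 7 pairs, with SAHA in red on the left and DMSO in dark blue on the right. RMI1 minus RMI2 lies highest in SAHA and RAD54L minus RAD54B lowest.

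Other probe sets of the same genes were read in a fit added after the data were seen. The 38 genes had 81 probe sets, and 22 genes had more than 1. In this fit over all 41091 probe sets with 1 gene, 39 of the 81 were called lower and 0 higher, against 11.1% lower and 11% higher of all these probe sets. Of 14 called genes with several probe sets, 7 had another called lower, 7 had none, and 0 had one called higher. CHEK1 was lower by all 4 of its probe sets (-1.49 to -0.46) and NBN by 4 of 5, the fifth being dim (mean log2 intensity 3.76). BRIP1 gave -1.08 by its dimmer probe set. BRCA1 gave -0.39 by its other probe set (limma adjusted p = 0.142), RAD51C -0.01 (0.959), and FAN1 -0.06 and 0.01 (0.683 and 0.831). With CLSPN, RAD52, SLX4 and GEN1 they make up the 7 genes with no other probe set called lower. The brightest probe set of RAD52 itself missed the threshold in the fit over all probe sets (limma adjusted p = 0.0592). So did the only probe set of FANCL (limma adjusted p = 0.0652), and by their brightest probe sets 24 of the 38 genes were called lower in that fit. Without probe sets of shared sequence only the dim one was left for NBN, at -0.02.

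**Figure D5:**
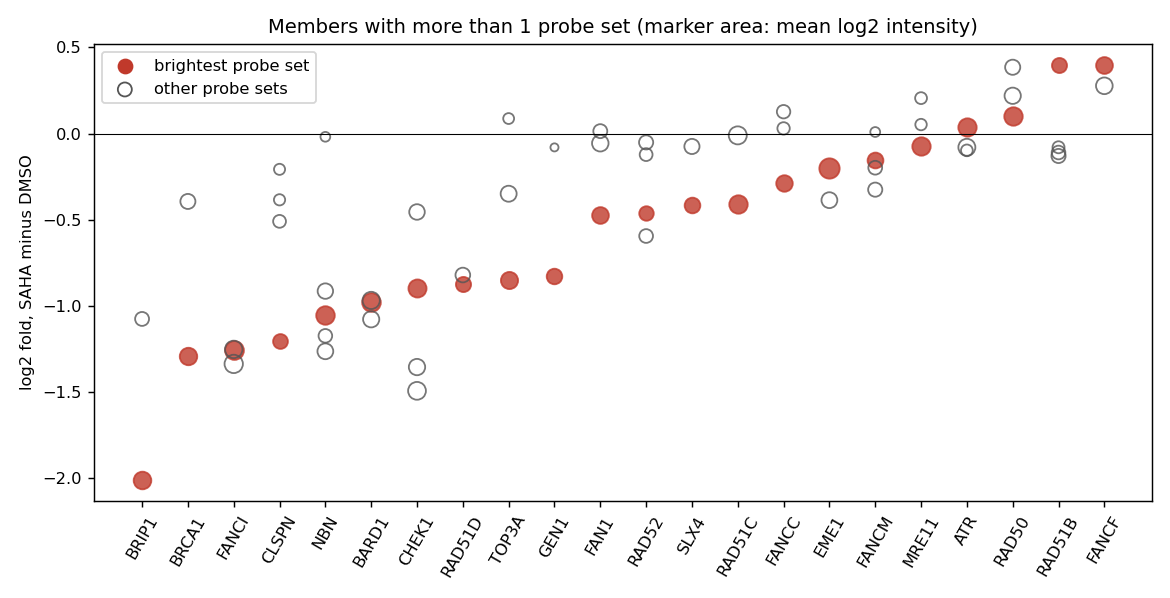
The log2 fold of each probe set (y axis, SAHA minus DMSO) is shown for the 22 genes with more than 1, ordered by the fold of the brightest, which is filled red; other probe sets are open, and marker area grows with mean log2 intensity. The probe sets of FANCI and BARD1 lie close together, and those of BRIP1 (-2.01 and -1.08) and BRCA1 (-1.29 and -0.39) lie apart.

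The same fit was read for neighbouring repair lists, as a description. Of 41 other recombination, Fanconi and ATR genes, 17 were called lower (41.5%) and 6 higher (14.6%), with a median of -0.19. Over all genes 15.6% were called lower and 14% higher, so the higher share was close to that of all genes. The largest changes were in TIMELESS of the fork protection complex (-1.62), CDC25A, the phosphatase that CHEK1 restrains (-1.28), the resection nuclease DNA2 (-1.18) and the polymerase POLQ (-0.97). SFR1, a recombinase accessory factor, was the highest of the list (0.75 ± 0.11, SE; limma adjusted p = 0.00852) and is named because it went against it. Of 33 replication fork genes, 27 were called lower (81.8%) and 1 higher (3.03%), with a median of -0.93. GINS2 (-1.93), CDC45 (-1.69), MCM5 (-1.52) and LIG1 (-1.45) led them. Replication genes thus moved with the repair genes in these arrays, and their part in the result was not tested. The call of DNA2 ended without SAHA 2, DMSO 1, DMSO 2 or DMSO 3 (limma adjusted p = 0.0722 to 0.103), and TIMELESS and GINS2 gave -0.26 and -0.12 without shared-sequence probe sets. The second brightest probe set ended the calls of CDC25A (-0.13, limma adjusted p = 0.613) and POLQ (-0.70, 0.163).

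Non-homologous end joining seals ends without a template. Of 13 genes, 2 were called lower and 2 higher, with a median of 0.01. Both shares (15.4%) were close to those of all genes (15.6% lower and 14% higher). XRCC4, the scaffold of the final ligation step, had 10.70 and 10.66 on the SAHA arrays, against 9.19, 9.27 and 9.45 on the DMSO arrays, and rose 2.60-fold (1.38 ± 0.09, SE; limma adjusted p = 0.00112). LIG4, the ligase it holds, had 8.74 and 8.37 on the SAHA arrays, against 7.28, 7.44 and 7.34 on the DMSO arrays, and rose 2.30-fold (1.20 ± 0.13, SE; limma adjusted p = 0.00346). The end-binding subunits XRCC6 and XRCC5 fell by 0.38 and 0.33. The calls of XRCC6 without SAHA 1, SAHA 2 or DMSO 3 (limma adjusted p = 0.0793 to 0.116) and of XRCC5 without SAHA 1 (0.0598) ended. Of 30 excision and mismatch repair genes, 13 were called lower (43.3%) and 4 higher (13.3%), with a median of -0.08. PARP2 (-1.33), the uracil glycosylase UNG (-1.21), MSH3 (-1.02) and LIG3 (-1.01) led that list, and MSH3 gave -0.03 without shared-sequence probe sets.

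Promoters of the genes that fell most and of the highest are shown because the genes moved together. RefSeq windows (GRCh38.p14, 250 bases before to 50 after a start) were found for 33 of the 38 genes. The 250 bases before the start follow, with capitals for CCAAT, for TTTGAA (the CHR element) and for GCGGGAA, an E2F-like core, each on either strand. They come from BRIP1 (chr17:61863529-61863778, minus strand), RAD51AP1 (chr12:4538640-4538889, plus strand), RAD54L (chr1:46247438-46247687, plus strand) and FANCF (chr11:22625824-22626073, minus strand).
BRIP1: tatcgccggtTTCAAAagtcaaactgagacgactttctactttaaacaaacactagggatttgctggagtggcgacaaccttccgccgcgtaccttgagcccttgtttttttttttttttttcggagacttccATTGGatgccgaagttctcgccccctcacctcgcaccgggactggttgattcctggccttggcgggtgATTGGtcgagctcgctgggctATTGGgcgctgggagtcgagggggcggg
RAD51AP1: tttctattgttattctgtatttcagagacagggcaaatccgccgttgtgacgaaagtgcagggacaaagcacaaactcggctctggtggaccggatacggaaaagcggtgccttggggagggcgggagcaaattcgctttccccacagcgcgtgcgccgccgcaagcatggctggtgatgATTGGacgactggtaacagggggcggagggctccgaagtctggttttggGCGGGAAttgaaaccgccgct
RAD54L: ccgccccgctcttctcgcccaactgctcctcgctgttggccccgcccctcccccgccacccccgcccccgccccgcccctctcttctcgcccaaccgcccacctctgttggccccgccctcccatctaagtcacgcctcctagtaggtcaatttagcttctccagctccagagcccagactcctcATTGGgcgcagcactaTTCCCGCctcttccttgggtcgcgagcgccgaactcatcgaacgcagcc
FANCF: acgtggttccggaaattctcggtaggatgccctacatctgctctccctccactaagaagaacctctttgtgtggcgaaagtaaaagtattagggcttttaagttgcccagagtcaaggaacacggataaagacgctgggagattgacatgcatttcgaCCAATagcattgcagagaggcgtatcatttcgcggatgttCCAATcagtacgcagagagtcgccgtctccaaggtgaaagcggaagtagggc
The 3 promoters of genes that fell each held 1 or more CCAAT letters in this stretch (BRIP1 at -117, -49 and -28, with TTTGAA at -240, RAD51AP1 at -70, RAD54L at -65, counted from the start), and so did FANCF, which did not fall, at -92 and -52. RAD51AP1 and RAD54L held the E2F-like core at -21 and -49. In the windows of 300 bases, where a gene counts if any of its windows holds a match, CCAAT was in 10 of 21 promoters of genes called lower, 5 of 12 of genes not called and 41.7% of all genes tested. The E2F-like core, whose letters were chosen after these promoters were read, was in 12 of 21 promoters of genes called lower and 5 of 12 of genes not called, against 16.3% of all genes called lower and 10.6% of all genes tested. It overlaps 1 of the full E2F letters, TTTCCCGC. Of the full sites, TTTGGCGC, TTTCGCGC, TTTCCCGC or TTTGCCGC were in 4 of 21 and 3 of 12, against 5.36% of all genes tested, and TTTGAA was in 1 of 21 and 1 of 12, against 15.6%. Among all 35116 windows the shares were 34.6% for CCAAT, 6.55% for the core, 3.31% for the full sites and 15.2% for TTTGAA. A match is a description and no site shown to be used.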

How the data were processed

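Total RNA from 5 samples was measured on single-colour oligonucleotide arrays, and the deposited values are intensity values on a linear scale, made with RMA in R 2.12 per the submitters' processing notes. RMA corrects background, quantile-normalizes the arrays and summarises probe sets. Quantile normalization removes a shift shared by all transcripts. The chip definition is not given in the sources used here, and there are no detection calls to judge signal against background.

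Log2 was taken and nothing was normalized again. Of 54675 probe sets, 41091 mapped to 1 gene, 1801 to several, and 11721 to none in the annotation used here, beside 62 controls. Symbols were updated through gene identifiers for 41037. The brightest probe set stood for each of 19775 genes, with no filter. Groups came from the sample titles. SAHA was compared with DMSO by limma 3.58.1 (lmFit and eBayes, two-sided) in R 4.3.3. The fit had 3 residual and 1.62 prior degrees of freedom. In simulated data for this comparison (19775 genes), 100% of 100 genes changed 2-fold and 66% of 100 changed by 0.5 on the log2 scale passed the threshold in the simulated direction. Unchanged genes made up 4.6% of the 174 called. Only those genes were changed in the simulation, with independent normal noise drawn from the moderated variances. In the data 29.6% of all genes were called, so the simulated shares may not hold for them. Figures used matplotlib 3.10.9.

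Members, roles and lists were chosen with earlier results of these data known. Every measured member is named. The rule gave values on every array to called members at least 2-fold changed, members called higher and partner pairs, and named up to 4 called genes per comparison list. FANCF, RAD51B, RAD51D, XRCC4, LIG4 and CDH1 (array values) and SFR1 (a name) were added after their values were seen. Alternatives covered scaling, dim genes (below the 40th percentile), the probe set, the variance model, ties, array weights, a replicate block, a threshold of 0.01 and each array left out.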

Additional observations from a re-analysis of the deposited data

How the results depend on the processing

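The log2 fold of all 26 called members stayed below 0 under each alternative that measured them, though BRCA1, RAD51C and MUS81 have no value without shared-sequence probe sets. It came close to 0 for NBN (-0.019 without shared-sequence probe sets) and RAD51C (-0.011 by the second brightest). The intensity trend, robust priors, the unmoderated test and the threshold of 0.01 could not change a fold. Averaging or taking the second brightest could not change that of a gene with 1 probe set. The dimmest probe sets of TOP3A (0.09) and FAN1 (0.01) lay above 0, but no setting used them alone. Of the 26, 8 (TOPBP1, FANCI, BARD1, PALB2, BRIP1, RAD54L, BLM and TOP3A) lost their call under none of the alternatives run. TOPBP1, PALB2, RAD54L and BLM have 1 probe set each, none of shared sequence. The settings that change the probe set could therefore not change their folds. Quantile normalization again gave 2 members called higher (FANCF and RAD51B), a late median of -0.57 and -1e-04 for XRCC2. Centring on ribosomal protein genes gave 1 member higher (FANCF), an early median of -0.44, 0 replication fork genes higher, ATR at -0.0099 and XRCC2 at -0.041. Centring on the median gene gave 2 members higher. Centring on the poly-A controls, spiked RNA added at a step the labels do not give, shifted the median of all genes to -0.40, with 14548 genes lower and 1361 higher, and 36 members lower. It gave medians of -0.77, -1.13 and -0.99 for early, middle and late steps, 28 lower and 2 higher among the other recombination genes, 8 lower in end joining, 23 lower and 2 higher in excision repair, 0 higher at the fork, and ATR at -0.34, RAD50 at -0.27 and XRCC2 at -0.37. Without dim genes, 2 members were higher and the middle median was -0.88. Averaging probe sets gave 1 member higher, early and late medians of -0.34 and -0.42, 0.17 for BRCA1 minus BARD1, 0.47 for CLSPN minus CHEK1, ATR at -0.047 and MRE11 at 0.061. Without shared-sequence probe sets, 20 of 33 measured members were lower and the step medians were -0.18, -0.82 and -0.70. That setting also gave 10, 1 and 6 lower among other recombination, end joining and excision genes, 0.014 for RAD50 minus MRE11, ATR at -0.08, MRE11 at 0.21, FANCC at 0.13 and XRCC5 at 0.058. The second brightest probe set, or the only one of a gene with 1, gave 1963 genes lower and middle and late medians of -0.39 and -0.41. It gave 10 lower and 3 higher among other recombination genes, and 8 lower and 2 higher in excision repair. Its pair differences were 0.58 for BRCA1 minus BARD1, 0.032 for EME1 minus MUS81, 0.014 for RAD50 minus MRE11 and 0.98 for CLSPN minus CHEK1. Its single genes that changed sign were ATR (-0.08), MRE11 (0.21), FANCC (0.13), RAD51B (-0.13), MSN (0.068), CDH1 (-0.10) and XRCC6 (0.046). Robust priors gave 1 member higher. The unmoderated test gave 13 members lower, 1831 genes lower and 1538 higher, 11 lower and 3 higher among other recombination genes, 1 lower in end joining and 2 higher in excision repair. Without genes with equal values, 2 members were higher, the early median was -0.51 and 0 fork genes were higher. With 1 array left out, members lower ranged over 17 to 20, all genes lower over 1985 to 2797 and higher over 1769 to 2234, and the early and late medians over -0.42 to -0.35 and -0.67 to -0.55. Over the same fits other recombination genes ranged over 10 to 13 lower and 3 to 5 higher, end joining over 1 to 2 lower, excision repair over 2 to 3 higher, the fork stayed at 0 higher, BRCA1 minus BARD1 ranged over -0.38 to -0.25, and ATR (-0.019 without SAHA 1, up to 0.090 without SAHA 2) and XRCC2 (-0.012 without DMSO 1, up to 0.019 without DMSO 2) changed sign. Replicate numbers share only a number here (deviations of same-numbered arrays correlated at 0.151 and -0.067); the replicate block, on 2 pairs, gave 14 members lower, 1316 genes lower and 1262 higher, 8 lower among other recombination genes, 0 lower and 1 higher in end joining, 7 lower and 1 higher in excision repair and 0 higher at the fork. At adjusted p under 0.01, 17 members, 1773 genes lower and 1544 higher were called, with 3 other recombination genes higher, 1 end joining gene lower, 2 excision genes higher and 0 fork genes higher. Without the Fanconi core the early median was -0.79. In the bases before the start alone, full E2F sites were in 0 promoters of called members and the E2F-like core in 2 of those not called. The cause of these changes was not tested, beyond fewer genes or arrays where a setting removes them. Arrays carry no detection calls here, so what dim signal limits is unknown.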
